A study of Mus musculus with 12 samples.

Results

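The transcripts of the mitochondrial genome were described in 12 thymic T-cell lymphomas of mice. They were found as the rows of the count table whose Ensembl identifier carries a symbol starting with mt-, which gave 37 of 37991 genes: 13 mRNAs, 2 rRNAs and 22 tRNAs. All 37 lie on the mitochondrial chromosome of GRCm38. The tumours were 8 labelled responder and 4 labelled non-responder to genetic restoration of p53, 1 RNA-seq library each. All 12 came from C57BL/6 mice of the genotype p53neo/R172H;R26CreER/GNZ, so every animal also carried a mutant p53 allele and a tamoxifen-activated Cre recombinase at the Rosa26 locus. Every tumour-bearing animal received tamoxifen weekly by the intraperitoneal route, and its tumour was taken after the last magnetic resonance scan, in which it had grown or shrunk. Both groups were thus treated tumours, with no untreated one analysed here; Rosa26 is active in most tissues, so recombination need not be limited to tumour cells. Ages are not given. The comparison asks whether mitochondrial transcripts differ between tumours that resisted p53 and tumours that responded to it.

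The mitochondrial genome is a small circle that encodes core subunits of the respiratory chain and of ATP synthase, together with the rRNAs and tRNAs needed to translate them. Both strands are transcribed into long precursors, which are cut mainly at the tRNAs that lie between the other genes. Most products come from the heavy-strand precursor, whereas mt-Nd6 and a minority of tRNAs come from the other strand. Most mature mitochondrial mRNAs carry a short poly(A) tail, so they are caught by mRNA kits. Thymic lymphomas arise from T-cell precursors, which depend on mitochondria for energy, for nucleotide synthesis and, downstream of p53, for the intrinsic route of apoptosis.

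Libraries held 23808086 to 30265753 counts in responders and 20796860 to 24393524 in non-responders. All 8 T-cell markers (CD3 chains, Cd2, Cd5, Lck, Thy1 and Cd8a) had a count in every tumour, and their summed level was 442 to 2260 CPM in responders and 1680 to 2410 CPM in non-responders (CPM here scaled by TMM). Trp53 was at 47.1 to 111 CPM and 63.1 to 73.4 CPM on that scale, and the counts do not tell the restored allele from the mutant one. The labels call the tumours independent samples. The mitochondrial values of responder 3 and of non-responder 3 stood apart from the other tumours, as given below, and results that rest on them are given without them.

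The levels of the 15 mRNAs and rRNAs differed by orders of magnitude, even per unit of length. On the scale of counts per 1000000 library counts (CPM) and per kilobase of transcript (CPM per kb, mean ± SD over 12 tumours), mt-Rnr2, the large-subunit rRNA, stood at 19420 ± 6551 and mt-Rnr1, the small-subunit rRNA, at 2952 ± 1898. Among the mRNAs, the complex IV subunits led: mt-Co3 at 7114 ± 1861, mt-Co1 at 5242 ± 1594 and mt-Co2 at 2778 ± 541. Next came mt-Nd3 at 2059 ± 481 and mt-Nd1 at 732 ± 192, both of complex I, and mt-Cytb of complex III at 445 ± 150. This order of the first 6 mRNAs was the same in all 12 tumours. The levels per length of mt-Nd4 (180 ± 108) and mt-Nd5 (164 ± 75.0) overlapped and exchanged places between tumours. So did those of mt-Nd2 (94.5 ± 46.5), mt-Atp6 (79.7 ± 17.7), mt-Nd6 (68.6 ± 26.5) and mt-Atp8 (66.9 ± 18.7), which held ranks 9 to 12 in changing order.

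Neighbouring genes of 1 precursor could thus differ widely in counts. mt-Atp6 (chrM:7927-8607) and mt-Co3 (chrM:8607-9390) share 1 base, yet the level of mt-Co3 per kb was 57.7 to 104 times that of mt-Atp6. mt-Nd4l (chrM:9877-10173), a complex I subunit gene between mt-Nd3 and mt-Nd4, had 0 counts in 11 tumours and 1 count in responder 4. For the libraries at 0, this allows up to 0.144 CPM in the shallowest of them, non-responder 2, counting error only. Some of these genes overlap their neighbours, and the bases that both annotations hold are shown here in capitals, with 12 bases either side in lower case (GRCm38, plus strand, 5′ to 3′), because a read touching them fits 2 genes.
mt-Atp8 and mt-Atp6, chrM:7915-7981: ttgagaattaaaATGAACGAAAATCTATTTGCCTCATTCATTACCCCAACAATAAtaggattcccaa
mt-Nd4l and mt-Nd4, chrM:10155-10185: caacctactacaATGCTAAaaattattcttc
mt-Nd5 and mt-Nd6, chrM:13540-13577: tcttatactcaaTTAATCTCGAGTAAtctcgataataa

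The first pair shares 43 bases and the second 7, both on the same strand. The third shares 14 bases on opposite strands. No source used here says whether counting was by strand, and without strand the reads of mt-Nd5 and mt-Nd6 in the overlap cannot be told apart. Nuclear copies are a further source of uncertainty, because pieces of the mitochondrial genome have been inserted into nuclear chromosomes. Of the 75-base windows (the read length) of mt-Co2, mt-Atp6, mt-Co3, mt-Nd3 and mt-Nd4l, 97.8% to 99.9% occurred letter for letter in an annotated nuclear transcript, as did 61.5% of those of mt-Nd4 and 39.8% of those of mt-Co1. The share was 5.70% for mt-Nd2, 1.66% for mt-Nd5 and 0.0% for mt-Nd1, mt-Nd6, mt-Atp8, mt-Cytb and both rRNAs. The copies of mt-Atp6 (Gm10925), mt-Co3 (Gm28437), mt-Co2 (Gm28661) and mt-Nd3 (Gm28438) are not rows of the count table; that of mt-Nd4l (Gm10222) is. Over the 9 nuclear genes in the table with at least 80% identity to a mitochondrial gene over at least 100 bases, the highest count in any tumour was 57.

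The share of windows found in annotated nuclear transcripts sorted the transcripts by level only in part. The mRNAs highest per length, mt-Co3, mt-Co1, mt-Co2 and mt-Nd3, had 39.8% to 99.9% of such windows. mt-Nd1, mt-Cytb, mt-Nd5, mt-Nd2, mt-Nd6 and mt-Atp8, with 0.0% to 5.70%, lay below them. But mt-Nd4 (61.5%) lay below them too, and mt-Rnr2 (0.0%) above all mRNAs. mt-Co3 and mt-Atp6 had nearly the same share of such windows (99.9% and 99.5%). Yet mt-Co3 had the highest mRNA level per length and mt-Atp6 one of the lowest. mt-Atp8, with no such window, was as low as mt-Atp6. Copies outside annotated transcripts were not searched, so mt-Atp8 may have copies that were missed. The part of nuclear copies in these levels was not tested. How reads that match several places were treated is not given in the sources used here. The levels of mt-Co1, mt-Co2, mt-Atp6, mt-Co3, mt-Nd3, mt-Nd4l and mt-Nd4 are therefore uncertain, and so are the shares and ratios below that set these transcripts beside others.

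**Figure D1:**
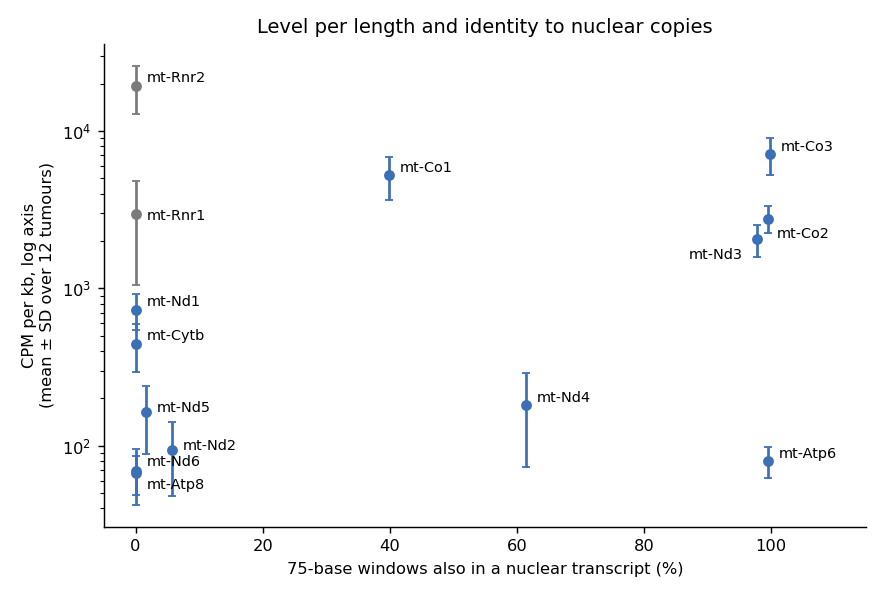
Level per length of 12 mRNAs (blue) and 2 rRNAs (grey) in CPM per kb on a log axis (mean ± SD over 12 tumours), against the percent of their 75-base windows that also occur in a nuclear transcript; mt-Nd4l, at 0 counts in 11 tumours, is left out. mt-Co3 and mt-Atp6 share nearly the same place on the horizontal axis at 7114 and 79.7 CPM per kb.

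Mitochondrial mRNA made up a smaller part of the library in each of the 4 non-responders than in any of the 8 responders. The 13 mRNAs together took 1.70% of the counts in the lowest responder, 1.93% in the median one and 2.89% in the highest, responder 4. They took 1.28%, 1.53%, 1.57% and 1.26% in non-responders 1 to 4. The groups did not overlap, with a gap between 1.57% in non-responder 3 and 1.70% in responder 2. The means were 2.03% ± 0.387 (SD, n = 8) and 1.41% ± 0.166 (SD, n = 4), a ratio of 0.693. Without responder 4, the difference of means shrank from -0.625 to -0.502 percentage points. Wilson 95% intervals of the single tumours for counting error were at most 0.0119 percentage points wide. The sum is over members chosen with earlier results known, so it was given no test. In bulk tumours, fewer cells rich in mitochondria and less mitochondrial RNA per cell cannot be told apart.

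Marker sums of muscle and of fat also had a lower median in non-responders (29.7 against 156 CPM and 39.4 against 202 CPM). The summed level of 18 genes of heart and skeletal muscle was 22.2 to 759 CPM in responders and 13.5 to 32.9 CPM in non-responders, and 17 of the 18 had a lower mean in non-responders. For 8 adipocyte genes, brown fat genes included, it was 43.4 to 1220 CPM and 31.3 to 56.0 CPM, with all 8 lower in mean. None of these genes was at 0 in all tumours. Marker sums of neutrophils (up to 671 against up to 20.9 CPM) and erythroid cells (139 to 2790 against 14.8 to 363 CPM) had lower medians as well. So did those of endothelium (142 to 529 against 87.9 to 148 CPM), B cells (16.7 to 196 against 7.75 to 36.1 CPM) and thymic epithelium (30.3 to 209 against 12.5 to 152 CPM). Every gene of these 5 lists was lower in mean, but all these sums except that of neutrophils overlapped between groups. Macrophage (733 to 2920 against 951 to 2970 CPM) and fibroblast sums (265 to 1520 against 393 to 1230 CPM) overlapped widely. Responder 4, with the highest share of mitochondrial mRNA, also had the highest sum of both lists (759 and 1220 CPM). Responder 8 had sums within the range of non-responders, at 22.2 and 43.4 CPM, and 1.81% of mitochondrial mRNA, above all 4 non-responders. Responders 2 and 3 had higher muscle sums than responder 8, 62.8 and 149 CPM, but less mitochondrial mRNA, 1.70% and 1.75%. Responder 6 came next after responder 4 in both muscle sum (465 CPM) and mitochondrial mRNA (2.22%). Responders 5, 1 and 7 had muscle sums of 193, 164 and 113 CPM and 2.008%, 1.85% and 2.035% of mitochondrial mRNA. T-cell sums were lowest in responders 4 and 6, at 442 and 720 CPM. Beyond these values, the part of other tissues in the result was not tested.

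**Figure D2:**
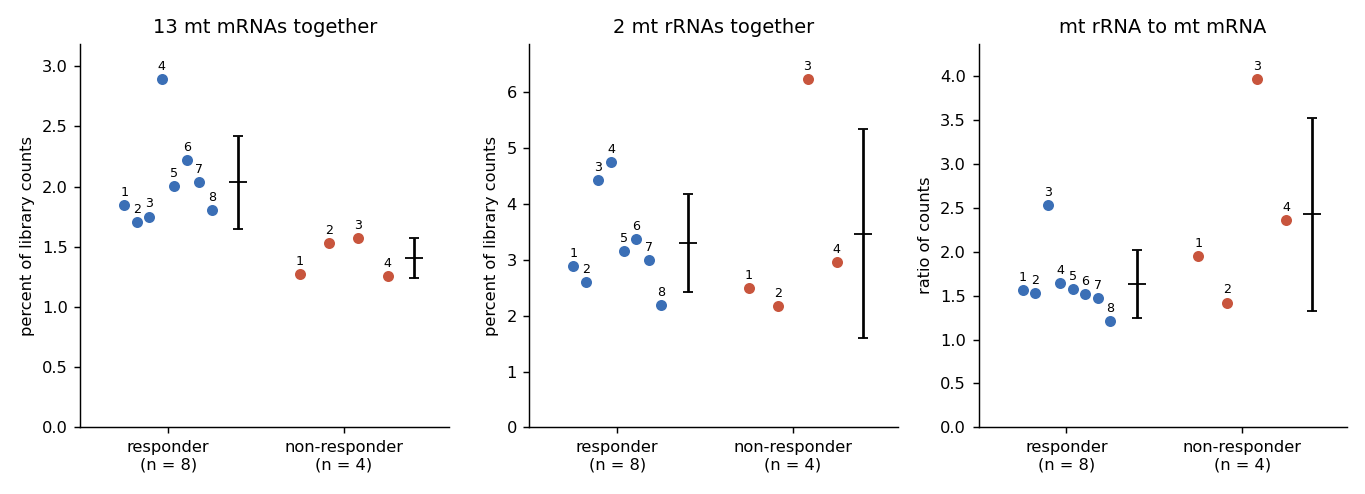
Percent of library counts taken by the 13 mRNAs (left) and the 2 rRNAs (middle), and the ratio of the rRNA to the mRNA counts (right), for each of 8 responders (blue) and 4 non-responders (red), numbered, with mean ± SD in black. The mRNA values of non-responders (1.26% to 1.57%) lie below those of responders (1.70% to 2.89%), while the rRNA values overlap.

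Gene by gene, the differences were small and none passed the threshold. Of the 37 genes, 18 passed the filter on low counts and were tested within the fit of all genes: 12 mRNAs, both rRNAs and 4 tRNAs. edgeR's quasi-likelihood test called 0 of these 18 at a Benjamini-Hochberg adjusted p under 0.05, as it called 0 of 18612 genes (0.0%). In simulated counts it recovered 4% of 2-fold changes, so a missing call does not show equal levels. At an unadjusted p under 0.05, 3 of the 18, all mRNAs, were lower in non-responders, against 16.1% of all genes in that direction; none was higher, against 7.73%. All 12 mRNAs had a log2 fold change (non-responder minus responder) below 0, with a median of -0.29, where the median of all genes tested was -0.02. That shared sign held under every scaling run, while in limma-voom mt-Nd2, mt-Nd4, mt-Nd5 and mt-Cytb turned, as they did without responder 3. mt-Nd2 and mt-Nd5 also turned without non-responder 1 (0.18 and 0.07) and without non-responder 2 (0.07 and 0.01), and mt-Cytb without non-responder 1 (0.008). With 1 surrogate variable in the fit all 12 stayed below 0, but the sizes moved by over 1.5 times for most: mt-Co1 to -0.14, mt-Co3 to -0.31, mt-Atp6 to -0.02, mt-Nd2 to -0.61 and mt-Nd4 to -0.88. Since the 12 come from shared precursors and the same libraries, they are not independent of each other.

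The complex IV subunits, which form the catalytic core of cytochrome c oxidase, held most of the mitochondrial mRNA. mt-Co3 (ENSMUSG00000064358) took 0.490% of the library in the lowest responder, 0.625% in the median and 0.835% in the highest. In non-responders 1 to 4 it took 0.376%, 0.508%, 0.395% and 0.353%. Its values overlapped in 1 place, with non-responder 2 above responder 3. The log2 fold change was -0.56 (SE 0.17, edgeR adjusted p = 0.117), and DESeq2 (adjusted p = 0.00646) and limma-voom (adjusted p = 0.0398) called it, the sole member that either called. Over all genes, DESeq2 called 9.49% as lower in non-responders and limma-voom 4.48%.

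mt-Co1 (ENSMUSG00000064351, chrM:5328-6872) took 0.623% in the lowest responder, 0.869% in the median and 1.42% in the highest. It took 0.587%, 0.649%, 0.716% and 0.473% in non-responders 1 to 4. Thus 7 of 8 responders were above all non-responders, and responder 3 lay between them. The fitted log2 difference was -0.52 (SE 0.20, edgeR adjusted p = 0.153). mt-Co2 (ENSMUSG00000064354, chrM:7013-7696) lay closer together in both groups, at 0.168%, 0.196% and 0.286% (lowest, median and highest responder) against 0.160%, 0.154%, 0.191% and 0.147%. Its log2 fold change was -0.25 (SE 0.17, edgeR adjusted p = 0.384).

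mt-Atp8 and mt-Atp6 encode the membrane subunits of ATP synthase and are read from 1 bicistronic mRNA. mt-Atp8 (ENSMUSG00000064356, chrM:7766-7969) was the sole tested member whose share of the plain library total did not overlap between groups. Over all genes tested, 1.1% were lower and 0.725% higher in non-responders without overlap. The separation of mt-Atp8 did not hold after TMM scaling, where responders 1 and 5 fell below non-responder 4. The TMM factors of these tumours were 1.086, 1.027 and 0.9035. It stood at 12.5, 14.8 and 19.6 CPM (lowest, median and highest responder; plain library totals) and at 7.42, 10.3, 9.96 and 11.1 CPM in non-responders 1 to 4. The log2 fold change was -0.62 (SE 0.23, edgeR adjusted p = 0.137); its counts were low, 166 to 587 per tumour, with Wilson 95% intervals up to 30.5% of the value wide. mt-Atp6 (ENSMUSG00000064357) overlapped, at 45.3, 54.1 and 76.7 CPM against 40.7, 48.8, 59.5 and 36.1 CPM (log2 fold change -0.26, SE 0.16, edgeR adjusted p = 0.344).

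The complex I subunits, which build the membrane arm of NADH dehydrogenase, did not separate the groups. mt-Nd1 was at 574, 702 and 1049 CPM in the lowest, median and highest responder and at 366, 556, 662 and 754 CPM in non-responders 1 to 4 (log2 fold change -0.30, SE 0.24). mt-Nd3 was at 640, 759 and 1134 CPM against 460, 711, 507 and 713 CPM (-0.29, SE 0.20). In both genes non-responder 1 was the lowest of all tumours. A further non-responder lay below all responders in each, number 2 for mt-Nd1 and number 3 for mt-Nd3, and the other 2 lay among the responders. The remaining members, mt-Nd2 (-0.07, SE 0.41), mt-Nd4 (-0.29, SE 0.43), mt-Nd5 (-0.10, SE 0.37) and the light-strand gene mt-Nd6 (-0.31, SE 0.36), had edgeR adjusted p between 0.611 and 0.930.

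Responder 3 set much of the spread of these genes. It held 688 CPM of mt-Nd4, where the other 7 responders held 126 to 245 CPM, and 687 CPM of mt-Nd5, where they held 155 to 297 CPM. Without responder 3, the log2 fold changes turned to 0.24 for mt-Nd2, 0.12 for mt-Nd4 and 0.21 for mt-Nd5, and that of mt-Cytb, the complex III subunit, to 0.04. With all tumours mt-Cytb was at 304, 486 and 885 CPM in the lowest, median and highest responder and at 324, 363, 712 and 462 CPM in non-responders 1 to 4 (log2 fold change -0.14, SE 0.30, edgeR adjusted p = 0.811).

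**Figure D3:**
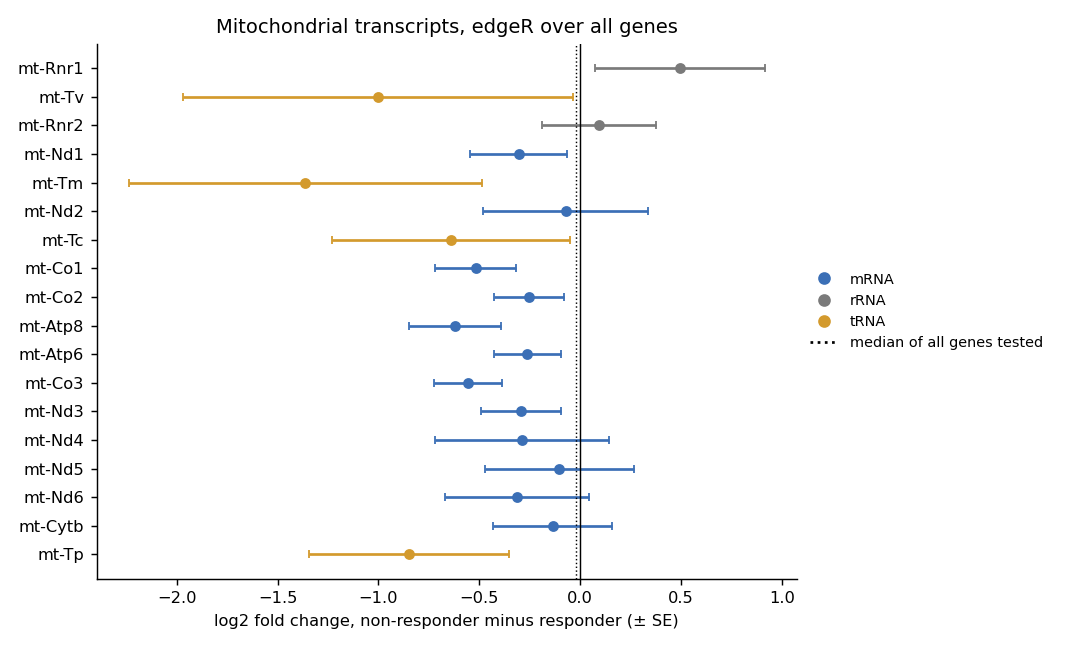
Log2 fold change (non-responder minus responder) ± SE from edgeR for the 18 members tested, in genome order, with mRNAs in blue, rRNAs in grey and tRNAs in yellow; the dotted line is the median of all genes tested (-0.02). The 12 mRNAs lie between -0.62 and -0.07 and the 2 rRNAs at 0.09 and 0.49.

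The rRNAs did not share the pattern of the mRNAs. mt-Rnr2 (chrM:1094-2675) took 2.01%, 2.87% and 4.40% of the library in the lowest, median and highest responder and 2.31%, 2.04%, 5.44% and 2.70% in non-responders 1 to 4. It was the most abundant mitochondrial transcript in every tumour although the libraries were made for mRNA. mt-Rnr1 (chrM:70-1024) took 0.177%, 0.208% and 0.428% against 0.186%, 0.132%, 0.794% and 0.263%. Non-responder 3 was the highest of all 12 tumours for both, and the other 3 non-responders lay within or below the range of responders. The log2 fold changes were 0.09 (SE 0.28) for mt-Rnr2 and 0.49 (SE 0.42) for mt-Rnr1, with edgeR adjusted p of 0.867 and 0.493. Without non-responder 3 both turned, to -0.26 and -0.25.

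Counts of rRNA per count of mRNA were 1.21 in the lowest responder, 1.54 in the median and 2.53 in the highest, responder 3. They were 1.95, 1.42, 3.97 and 2.37 in non-responders 1 to 4, with means of 1.63 ± 0.385 (SD, n = 8) and 2.43 ± 1.10 (SD, n = 4). The difference of means of 0.797 shrank to 0.284 without non-responder 3. This ratio was described and not tested. Counts of mt-Rnr2 per count of mt-Rnr1 averaged 12.5 ± 1.59 (SD) over responders and 11.3 ± 3.63 over non-responders, a difference within the spread (two-sided exact permutation test, p = 0.418). Non-responder 3, at 6.86, and responder 3, at 9.34, had the lowest of these ratios, and the difference turned from -1.24 to 0.23 without non-responder 3.

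Counts of the tRNAs were few. Of 22 tRNA genes, 9 had 0 counts in all tumours, 9 had fewer than 100 counts over all tumours and 4 had more. The tRNAs of proline and cysteine, mt-Tp with 7253 counts and mt-Tc with 3430 counts, held 94.3% of the 11323 tRNA counts. Their genes are 67 and 66 bases long, shorter than the read length, so a full-length read counted for them reaches beyond the gene. The counts and ratios given for them cannot be read as levels of the mature tRNAs. Whether their reads come from longer precursors or from the opposite strand was not tested, and the strand setting is not given. Of the tRNA genes, only these held more than a few counts in every tumour. Both genes are shown 5′ to 3′ on their own strand (GRCm38, minus strand).
mt-Tp, chrM:15356-15422: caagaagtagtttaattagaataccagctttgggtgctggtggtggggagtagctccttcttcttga
mt-Tc, chrM:5192-5257: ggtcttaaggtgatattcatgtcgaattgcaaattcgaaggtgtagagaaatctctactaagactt

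Both genes lie on the light-strand side, as do 8 of the 22 tRNA genes; the other 6 of these 8 held 177 counts together, and the 14 heavy-strand genes 463. mt-Tp was at 16.3, 23.3 and 49.0 CPM in the lowest, median and highest responder and at 6.88, 23.0, 3.82 and 25.7 CPM in non-responders 1 to 4. The lowest 2 values of all tumours were thus those of non-responders 1 and 3, and the other 2 non-responders lay among the responders. edgeR gave a log2 fold change of -0.85 (SE 0.50, adjusted p = 0.312). mt-Tc was at 3.24, 9.73 and 24.7 CPM against 1.92, 8.51, 7.12 and 14.0 CPM (log2 fold change -0.64, SE 0.59, edgeR adjusted p = 0.526). The other 2 tRNAs tested were those of methionine, mt-Tm (244 counts in all, log2 fold change -1.36, SE 0.88), and valine, mt-Tv (124 counts, -1.002, SE 0.97). In limma-voom these were -0.12 and -0.13, so their size depended on the tool. mt-Tw and mt-Te followed with 76 counts each and were not tested. Counts of mt-Tp per count of mt-Tc ran from 0.536 in non-responder 3 to 7.01 in responder 6.

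Within the mitochondrial mRNA, the shares of most transcripts did not differ between groups beyond their spread. This comparison needs no scaling, since each transcript is given as a percent of the 13 mRNAs of its own library. mt-Co1 held 44.5% ± 3.93 (SD) of it in the 8 responders against 42.9% ± 3.81 in the 4 non-responders, and mt-Co3 31.2% ± 1.88 against 29.0% ± 3.36. The complex IV subunits together held 75.1% to 89.2% and the complex I subunits 8.72% to 19.4%. Over 12 transcripts tested (mt-Nd4l had too few counts), unadjusted p from an exact two-sided permutation test lay under 0.05 for 2, mt-Co2 and mt-Atp6, and between 0.168 and 0.887 for the other 10.

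mt-Co2 held 9.08% of the mitochondrial mRNA in the lowest responder, 9.95% in the median and 11.5% in the highest. It held 12.6%, 10.1%, 12.1% and 11.7% in non-responders 1 to 4, so 3 of the 4 lay above all responders (difference 1.58 points, exact permutation p = 0.0182). mt-Atp6 held 0.287% ± 0.0224 in responders and 0.326% ± 0.0378 in non-responders, with overlap (exact permutation p = 0.0364). With 12 transcripts compared, neither p was adjusted. Neither transcript kept a p under 0.05 when mt-Co1 was left out of the total (0.0505 and 0.188) or on the scale of centred log ratios (0.705 and 0.859), where mt-Atp8 was the one below it (-0.31, exact permutation p = 0.0121). With 1 tumour left out, mt-Co2 lost its p under 0.05 only without non-responder 1 (0.0545). mt-Atp6 kept it only without responder 3, 6 or 7 or non-responder 4, and lost it in the other 8 runs (0.0545 to 0.164). Other transcripts came under 0.05 in some of these runs: mt-Nd5 and mt-Cytb without responder 3 (0.0273 and 0.0364), mt-Co3 without non-responder 2 (0.0303) and mt-Nd3 without non-responder 3 (0.0424).

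Relative to their mean, shares of complex I and III transcripts differed more between tumours than those of complex IV. The coefficient of variation over 12 tumours was 8.38% for the share of mt-Co3, 8.64% for mt-Co1 and 10.9% for mt-Co2. It was 16.5% for mt-Nd3, 26.3% for mt-Nd1, 35.6% for mt-Cytb, 43.15% for mt-Nd6, 52.0% for mt-Nd5, 56.4% for mt-Nd2 and 63.6% for mt-Nd4. In percentage points, mt-Co1 (SD 3.8) and mt-Co3 (SD 2.55) spread more widely than mt-Nd1 (SD 1.03) or mt-Nd4 (SD 0.901). Responder 3 and non-responder 4 had the most complex I mRNA, 19.4% and 18.4%, where the other 10 tumours had 8.72% to 12.3%. Both had the lowest share of mt-Co1, 35.6% and 37.7%, and the highest of mt-Nd1, 5.99% and 6.01%. The light-strand transcript mt-Nd6 was highest in these 2 tumours, at 0.355% and 0.368%, with 0.114% to 0.270% in the others. These values are not independent of each other. All are shares of the same total, and mt-Nd1 and mt-Nd6 are part of the complex I share. The 2 tumours carry different response labels, so this pattern did not follow the groups.

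**Figure D4:**
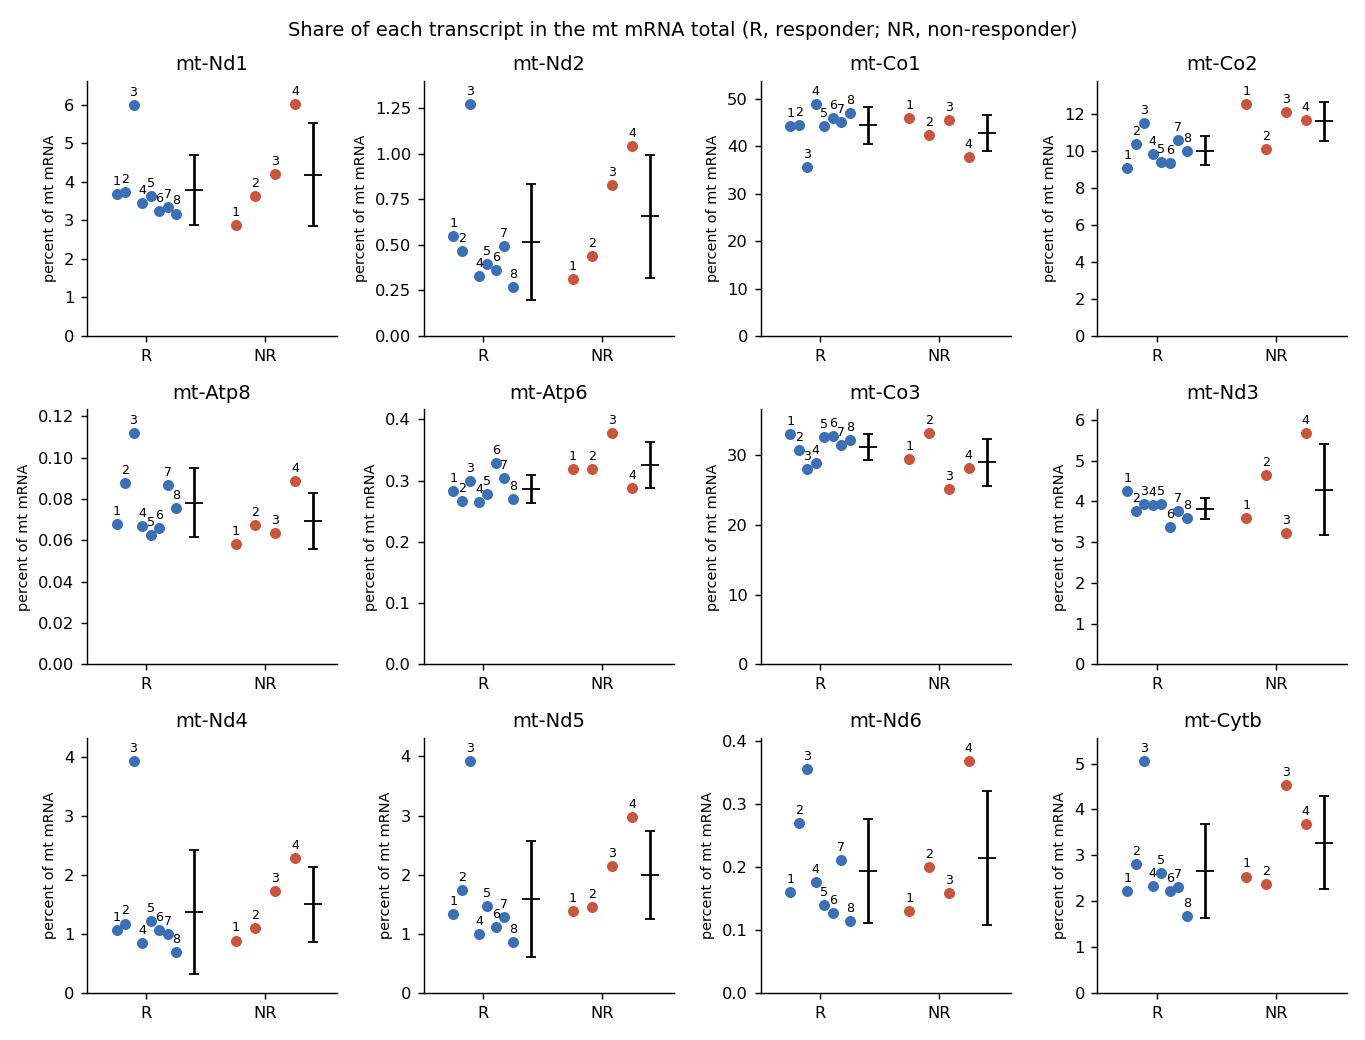
Percent of the mitochondrial mRNA total held by each of 12 mRNAs in 8 responders (R, blue) and 4 non-responders (NR, red), numbered, with mean ± SD in black; each panel has its own axis from 0. Responder 3 and non-responder 4 are the highest 2 tumours in the panels of mt-Nd1 (5.99% and 6.01%), mt-Nd2, mt-Nd4, mt-Nd5 and mt-Nd6, while for mt-Nd3 responder 3, at 3.94%, lies among the others.

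Nuclear genes of the same machinery did not share the direction of the mitochondrial mRNAs. The 75 nuclear genes of the respiratory chain and ATP synthase took 0.833% to 1.12% of the library in responders and 0.912% to 1.27% in non-responders. Counts of mitochondrial mRNA per count of these genes were 1.57 to 3.48 in responders and 1.40, 1.24, 1.58 and 0.986 in non-responders 1 to 4, with overlap between responder 3 and non-responder 3. Of the 75, 53 had a log2 fold change above 0 and 22 below, with a median of 0.19; at an unadjusted edgeR p under 0.05, 10 were higher in non-responders and 1 lower, where over all genes 7.73% were higher and 16.1% lower. Over 11 nuclear lists together, edgeR called 0 of 205 genes tested, and 23 were higher and 3 lower at an unadjusted p under 0.05. DESeq2 called 6 higher and 1 lower, limma-voom 9 higher and 0 lower; over all genes DESeq2 called 2.43% higher and 9.49% lower, limma-voom 4.37% and 4.48%. The lists were chosen with earlier results of these data known.

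Among subunits, Atp5b, the catalytic beta subunit of ATP synthase, averaged 1140 ± 348 CPM (TMM-scaled, SD) over responders and 2030 ± 725 CPM over non-responders. The groups overlapped, and the log2 fold change of 0.83 (SE 0.26) had an adjusted p of 0.118 in edgeR, 0.0462 in DESeq2 and 0.0402 in limma-voom. Atp5a1, the alpha subunit, differed by 0.53 (SE 0.21) and Cox4i1, a nuclear subunit of complex IV, by 0.49 (SE 0.18). Uqcr11 and Uqcrb, both of complex III, went opposite ways (0.57, SE 0.20, and -0.61, SE 0.20), with edgeR adjusted p of 0.134 and 0.121. Ndufc1, an accessory subunit of complex I, differed by 0.55 (SE 0.24), and Sdhc, a membrane anchor of complex II, by 0.33 (SE 0.15).

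Of 20 genes of mitochondrial RNA processing and decay, 16 had a log2 fold change above 0 and 4 below, and of 7 transcription genes 5 and 2, where 9023 of all 18612 genes lay above 0. T-cell markers had the same direction, with 7 of 8 higher in mean in non-responders, and their part in these counts was not tested. Polrmt, the mitochondrial RNA polymerase, averaged 38.7 ± 9.31 CPM over responders against 62.2 ± 12.1 CPM over non-responders, with overlap. Its log2 fold change of 0.69 (SE 0.20) had an adjusted p of 0.117 in edgeR, 0.0331 in DESeq2 and 0.0398 in limma-voom. Tfam, which packages mitochondrial DNA and starts its transcription, was at 66.2 ± 15.9 and 93.4 ± 24.0 CPM (0.50, SE 0.21, edgeR adjusted p = 0.175). The gene of the nuclease subunit of mitochondrial RNase P, Prorp (listed under its older symbol 1110008L16Rik), was at 18.6 ± 2.22 and 27.3 ± 3.19 CPM without overlap. Its log2 fold change was 0.55 (SE 0.15), with adjusted p of 0.117 in edgeR, 0.00385 in DESeq2 and 0.0402 in limma-voom. Prorp was named for its low p within its list. Over all genes tested, 0.725% were higher in non-responders without overlap, on plain library totals. Lrpprc, whose protein stabilises mitochondrial mRNAs, had nearly the same mean in both groups, 195 ± 40.2 and 182 ± 76.0 CPM (-0.10, SE 0.26).

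Of 76 tested genes of mitochondrial ribosomal proteins, 61 lay above 0 and 15 below, with a median of 0.18. Polg, the mitochondrial DNA polymerase, was at 70.5 ± 20.2 and 121 ± 35.1 CPM (0.78, SE 0.25; adjusted p 0.118 in edgeR, 0.0419 in DESeq2 and 0.0553 in limma-voom), while the other 9 genes of mitochondrial DNA maintenance gave 3 above 0 and 6 below. Rrm2b, a ribonucleotide reductase subunit and p53 target, differed by 0.29 (SE 0.18). Ppargc1a, a coactivator of mitochondrial biogenesis typical of muscle and brown fat, averaged 2.21 ± 2.08 CPM over responders against 0.129 ± 0.0894 CPM over non-responders, in the tumours where the muscle sum was 13.5 to 32.9 CPM. At a log2 fold change of -4.05 (SE 1.08), its adjusted p was 0.117 in edgeR, 0.00112 in DESeq2 and 0.0697 in limma-voom. Non-responders lay at 0.0 to 0.196 CPM and the lowest responder at 0.119 CPM, where 0 counts allow up to 0.144 CPM in the shallowest library. The values of Ppargc1a thus overlapped near the floor, and the size of its fold change is uncertain. Its part in the mitochondrial share was not tested.

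**Figure D5:**
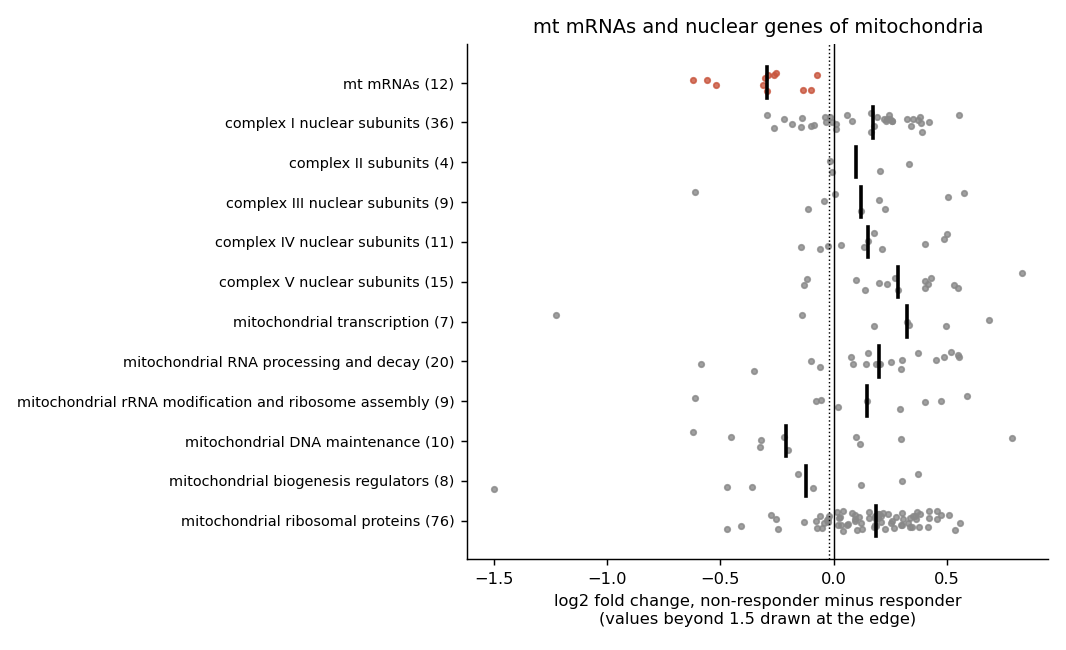
Log2 fold change (non-responder minus responder) of the 12 tested mitochondrial mRNAs (red) and of the genes of 11 nuclear lists (grey), one point per gene, with the median of each list in black and that of all genes (-0.02) dotted; Ppargc1a, at -4.05, is drawn at the edge. The median of the mitochondrial mRNAs is -0.29, and 9 of the 11 nuclear lists have a median above 0.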

How the data were processed

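The authors deposited raw counts per gene in 1 table of 37991 Ensembl identifiers and 12 tumours, whole numbers throughout. Per the labels' protocols, TruSeq mRNA libraries were sequenced as paired reads of 75 bases, 4 libraries to a lane. Per the submitters' processing notes, the tools were HTSeq and DESeq; the notes name NCBIM37 where the labels name mm10, so the build of the counts is unsettled. No aligner, version, strand setting or rule for reads with several matches is given in the sources used here. Symbols (32919 identifiers), positions and sequences are from GENCODE M21 (GRCm38). Groups follow the response label, and tumours are numbered within a group in accession order.

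Shares used plain library totals. All genes that passed filterByExpr (18612) were scaled by TMM and tested with edgeR 4.0.16 (quasi-likelihood, robust, group only, R 4.3.3), adjusted by Benjamini-Hochberg over all of them; alternatives used DESeq2 1.42.0, limma-voom (limma 3.58.1) with quality weights and sva 3.50.0. DESeq2 gave an adjusted p to 21528 genes. Shares within the mitochondrial mRNA were compared by exact two-sided permutation of the tumours, with a smallest possible p of 0.00202. Windows of 75 bases were matched to GENCODE transcripts on both strands, and nuclear copies found with blastn 2.17.0. No molecular identifiers are named, so intervals cover counting error only. Each script with a fit was checked on simulated counts. There edgeR recovered 4% of 2-fold and 44% of 4-fold changes, limma-voom 4% and 44%, and DESeq2 22% and 68%. Of unchanged genes, edgeR and limma-voom each called 7 of 18044 and DESeq2 55 of 18412. Members, lists and tests were chosen with earlier results of these data known. Named were all mRNAs and rRNAs, the 5 tRNAs with the most counts (6 with a tie), the 3 genes of each nuclear list with the lowest p, and Tfam, Polrmt and Lrpprc; the text gives a part of the nuclear ones. Alternatives were RLE and upper-quartile scaling, scaling without mitochondrial genes, other filters, no robust dispersion, 1 surrogate variable, other denominators and each tumour left out.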

Additional observations from a re-analysis of the deposited data

Results flagged for a closer look

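Of 60 sets of values examined, each 1 quantity in 1 response group, 13 had a tumour set far apart from the rest of its group by Dixon's criterion, all among responders. Chance gives about 5% of independent groups, but these sets share counts and tumours, so 13 cannot be judged against it. The criterion also asks for a wider relative gap in the smaller group of non-responders. Non-responder 3, at 0.794% of mt-Rnr1 where the other non-responders had 0.132% to 0.263%, was not flagged. Responder 4 was far above the other 7 for the mitochondrial mRNA total, at 2.89% of the library where the others had 1.70% to 2.22%. It was also apart for mt-Co2, at 0.286% (others 0.168% to 0.216%), and for mt-Nd3, at 0.113% (others 0.0640% to 0.0789%). The remaining 10 were responder 3. As a percent of the library it held 0.0223% of mt-Nd2 (others 0.00481% to 0.0102%), 0.0688% of mt-Nd4 (others 0.0126% to 0.0245%) and 0.0687% of mt-Nd5 (others 0.0155% to 0.0297%). As a percent of the mitochondrial mRNA it held 5.99% of mt-Nd1 (others 3.18% to 3.73%), 1.27% of mt-Nd2 (others 0.266% to 0.550%), 3.93% of mt-Nd4 (others 0.700% to 1.22%), 3.92% of mt-Nd5 (others 0.859% to 1.75%) and 5.05% of mt-Cytb (others 1.68% to 2.81%), and it was the lowest for mt-Co1, at 35.6% (others 44.2% to 48.9%). Its ratio of rRNA to mRNA was 2.53, with 1.21 to 1.64 in the other responders.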

How the results depend on the processing

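The gap in mitochondrial mRNA between groups (-0.625 percentage points) kept its direction under all 4 other denominators or member sets and ran from -0.680 to -0.502 with 1 tumour left out. edgeR called 0 mitochondrial and 0 nuclear pathway genes in every edgeR setting, with 1 tumour left out included (0 to 0), while DESeq2 called 1 and 7 and limma-voom 1 and 9. In limma-voom the log2 fold changes of mt-Nd2 (0.13), mt-Nd4 (0.01), mt-Nd5 (0.16) and mt-Cytb (0.033) turned. With 1 tumour left out, mt-Nd2 ran from -0.34 to 0.24, mt-Nd4 from -0.53 to 0.12, mt-Nd5 from -0.33 to 0.21, mt-Cytb from -0.36 to 0.037, mt-Rnr1 from -0.25 to 0.77 and mt-Rnr2 from -0.26 to 0.26. The difference in the rRNA to mRNA ratio ran from 0.284 to 1.13, and that in the mt-Rnr2 to mt-Rnr1 ratio from -2.65 to 0.23. The count of 2 transcripts with another share of the mitochondrial mRNA was 0 without mt-Co1 in the total, 1 without the overlapping pairs, 1 on centred log ratios, and 0 to 4 with 1 tumour left out. On centred log ratios the differences of mt-Nd1 (-0.029), mt-Nd3 (-0.013) and mt-Nd6 (-0.025) turned. With 1 tumour left out, shares of the mitochondrial mRNA ran from -0.213 to 0.834 points for mt-Nd1, -2.85 to 0.156 for mt-Co1, -0.132 to 0.495 for mt-Nd4 and -0.0313 to 0.0483 for mt-Nd6. Without the filter on low counts the median of all genes moved from -0.02 to -0.11. Apart from the left-out tumours, the cause of these changes was not tested. No paired analysis was possible because the labels give no replicate numbers or pairing. Low counts limit what can be said of the tRNAs, mt-Atp8 and mt-Nd4l, and the cause of these low counts was not tested.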
